A study of Rattus norvegicus with 2 samples.

Results

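The genes described here are 35 genes of mitosis: cyclins and kinases that start it, spindle and kinetochore proteins, the checkpoint that delays chromosome separation, and the machinery of cytokinesis. They were given as a list of gene names and looked up on the array through the RefSeq accession of each probe. Of the 35, 29 had a probe on the array, among 15153 genes with a matched probe in all. The other 6, Mki67, Top2a, Bub1b, Cenpe, Kif4a and Ect2, had no matched probe and are not analysed here. Rat RNA was measured on 2 Agilent expression arrays that use a single dye. The control array (n = 1) carried RNA of intracranial arterial walls of untreated rats, labelled as normal. The aneurysm array (n = 1) carried RNA of a lesion of an induced intracranial aneurysm, taken 3 weeks after induction. Neither the way the aneurysm was induced, the strain, age or sex of the rats, nor the number of animals behind each RNA is given in the sources used here. With 1 array in each group there is no replicate check and no test across samples, so every value below describes these 2 libraries only, and the number of arrays limits the precision.

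Transcripts of mitotic genes are made mainly in the later part of the cell cycle and are low in resting cells. In a whole tissue their level therefore depends in part on how many cells are dividing. Cyclin B with the kinase Cdk1 drives entry into mitosis, kinesin motors and microtubule bundling proteins build the spindle, and kinetochores hold the chromosomes on it. The checkpoint proteins hold back the anaphase promoting complex until every chromosome is attached, after which securin and cyclin B are degraded and the cell divides. In resting cells the DREAM complex, and in dividing cells B-Myb and FoxM1, act on these genes through a promoter element called the cell cycle genes homology region (CHR), often beside CCAAT boxes bound by NF-Y. Cells of a healthy arterial wall are mostly resting. In bulk tissue, a change in the number of dividing cells and a change in the RNA of each dividing cell cannot be told apart.

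The members share promoter elements that their selection did not use. RefSeq promoter windows (GRCr8 build, 300 bases around the gene start, most of them before it) were found for 29 of the 35 genes, leaving Ccna2, Foxm1, Ube2c, Aurkb, Tpx2 and Racgap1. The CHR core TTTGAA, on either strand, was present in 21 of these 29 windows (72.4%), against 18.1% of 27457 rat promoters of the same length. A CCAAT box on either strand was present in 22 (75.9%), against 37.7% of all promoters, and 16 held 2 or more of them (55.2% against 11.5%). Both motifs together were found in 17 windows (58.6% against 7.25%). In the 150 bases before the start, the share with a CHR core was 37.9% against 9.12%, and that with a CCAAT box 72.4% against 23.7%. The searched letters can overlap, as in Mki67 and Cdca8, where TTTGAA and ATTGG share bases. A match describes these letters only and is not shown to be a bound site.

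Promoters of 6 members are printed to show the arrangement of these elements, the first 4 of genes whose signal was higher on the aneurysm array and the last 2 of genes whose signal was close to that of the control. Each is the 150 bases before the gene start, written 5′ to 3′ on the strand of the gene, with the CHR core TTTGAA and the CCAAT box in capitals. A motif on the other strand reads as TTCAAA for the CHR core and as ATTGG for the CCAAT box. The windows lie at chr20:19265143-19265292, plus strand (Cdk1), chr8:79981659-79981808, minus strand (Ccnb2), chr1:143659331-143659480, plus strand (Prc1), chr10:28406327-28406476, minus strand (Pttg1), chr5:137255800-137255949, minus strand (Cdc20) and chr10:103571996-103572145, plus strand (Birc5), all GRCr8.
Cdk1: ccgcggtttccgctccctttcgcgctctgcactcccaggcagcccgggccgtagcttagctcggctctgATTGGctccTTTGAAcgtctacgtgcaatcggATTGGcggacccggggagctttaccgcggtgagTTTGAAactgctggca
Ccnb2: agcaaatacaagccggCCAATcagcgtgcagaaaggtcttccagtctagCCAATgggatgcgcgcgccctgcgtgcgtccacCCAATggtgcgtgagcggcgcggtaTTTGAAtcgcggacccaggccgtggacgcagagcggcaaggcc
Prc1: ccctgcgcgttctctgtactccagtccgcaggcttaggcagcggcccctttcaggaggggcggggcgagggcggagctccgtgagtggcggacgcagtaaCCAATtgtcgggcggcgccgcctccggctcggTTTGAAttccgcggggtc
Pttg1: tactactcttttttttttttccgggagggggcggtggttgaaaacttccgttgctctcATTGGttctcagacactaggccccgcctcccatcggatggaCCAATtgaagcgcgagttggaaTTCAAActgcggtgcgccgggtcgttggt
Cdc20: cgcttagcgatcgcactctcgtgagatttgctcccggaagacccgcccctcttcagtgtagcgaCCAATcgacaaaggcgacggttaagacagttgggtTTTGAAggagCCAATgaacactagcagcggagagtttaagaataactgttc
Birc5: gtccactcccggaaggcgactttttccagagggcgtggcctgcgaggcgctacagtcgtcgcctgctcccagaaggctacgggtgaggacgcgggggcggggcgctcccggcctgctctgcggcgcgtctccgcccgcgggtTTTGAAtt
In Ccnb2, 3 CCAAT boxes begin 134, 101 and 68 bases before the start and are followed by a CHR core 43 bases before it. In Prc1 the order is the same, with a CCAAT box at 50 and a CHR core at 18 bases. Cdk1 has CHR cores at 72 and 16 bases and reversed CCAAT boxes at 81 and 49 bases. In Pttg1 the CHR core, on the other strand, begins 29 bases before the start. Cdc20, one of the genes close to control, also has both motifs (CHR core at 51, CCAAT boxes at 86 and 41 bases), and Birc5 has a CHR core 8 bases before its start. Among the 19 members with a promoter window that were measured on both arrays, the 13 with a CHR core had a median log2 difference of 0.44 and the 6 without one 0.58, with ranges that overlap.

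**Figure D1:**
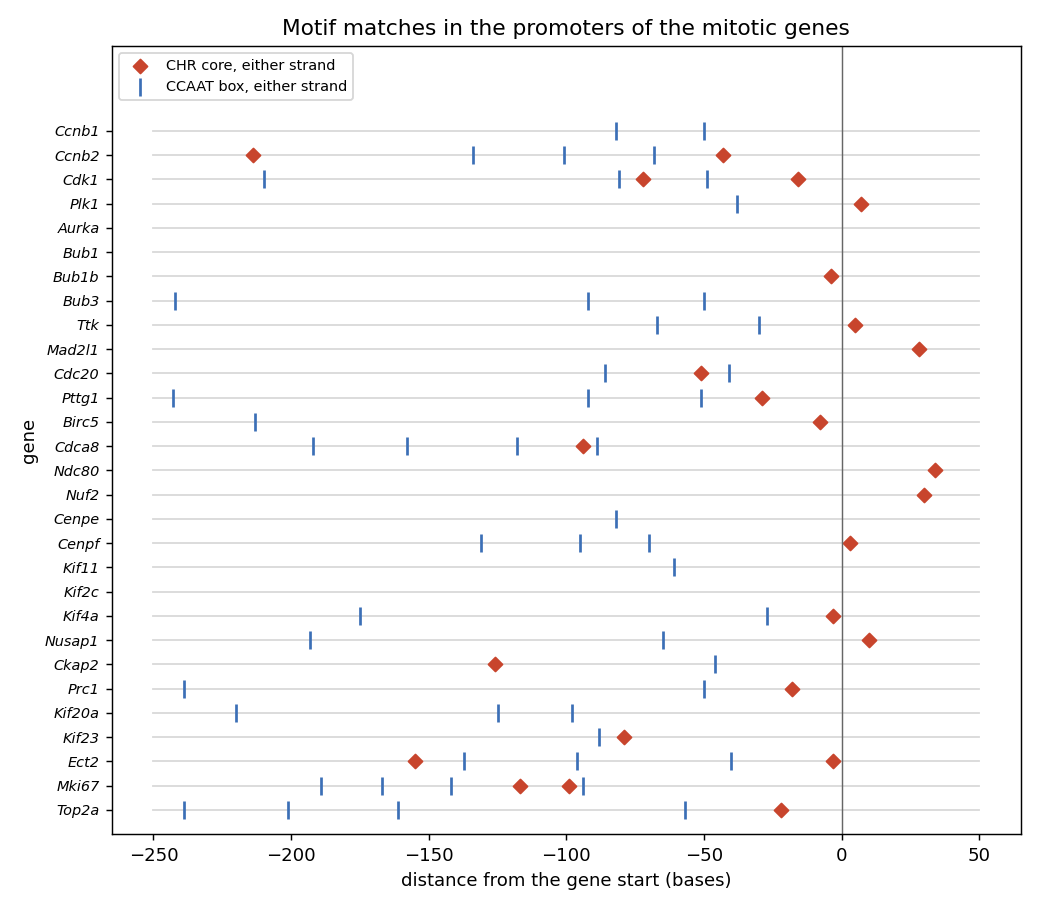
Positions of the CHR core (diamonds) and the CCAAT box (bars) on either strand in the promoter windows of the 29 mitotic genes with an entry, as distance from the gene start in bases. Both motifs are present in 17 of the 29 windows, and in 10 of them within the 150 bases before the start.

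Most of the mitotic genes gave dim spots. A spot signal is given here as a percentage of the 75th percentile of its array's non-control spots (an intensity of 621 in the control and 801 in the aneurysm array), which is the scaling used throughout. The 29 genes were measured by 37 probes with 113 spots per array: 9 probes had 1 spot, 22 had 2 and 6 had 10. Of these spots 76.1% (86) were marked well above background on the control array and 90.3% (102) on the aneurysm array, while over all non-control spots the shares were 74.7% and 76.4%. A probe was taken as measured on an array when no fewer spots carried the mark than lacked it. By that rule 23 genes were measured on both arrays, 5 on the aneurysm array only (Ccnb2, Aurkb, Cenpf, Tpx2 and Kif2c) and 1 on the control array only (Cdca8). Over the whole array 11978 genes were measured on at least 1 array and 11196 of them on both. How the rest divide between the arrays was not counted, so the 5 and the 1 have no background share. The lowest probe well above background lay at 1.17% of the scale on the control array and 0.858% on the aneurysm array, and no spot was saturated. The scaled signal of the spots is plotted for every gene by array.

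**Figure D2:**
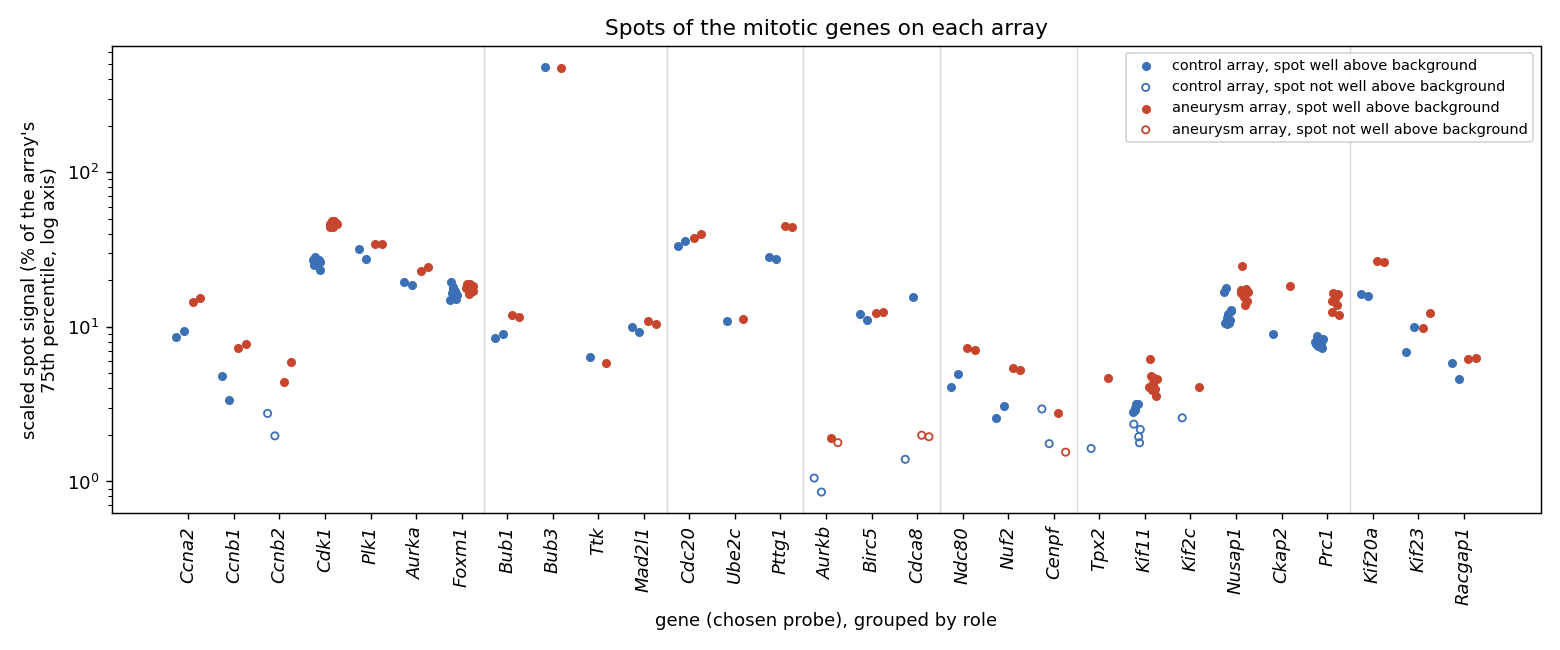
Scaled signal of every spot of the chosen probe of 29 mitotic genes (log axis, % of the array's 75th percentile), control in blue and aneurysm in red, filled where the spot was well above background. Cdk1, Prc1 and Kif11 have aneurysm spots above all their control spots, Foxm1 and Nusap1 have spots that overlap, and Cdca8 has control spots at 1.39% and 15.5%.

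As a group the mitotic genes were higher on the aneurysm array, by an amount below 2-fold for most. Each difference is the log2 level of the aneurysm array less that of the control array. It is followed by ± its spot error, which comes from how repeat spots scatter within an array and holds no variation between animals. Among the 23 genes measured on both arrays the median difference was 0.44, and 21 of the 23 lay above 0, against 50% of the 11196 genes measured that way, whose median was -0.00026. Of the 23, 10 were at least 1.5-fold higher and none as much lower, against 3% higher and 6.23% lower of all genes. At 2-fold Ckap2 alone was higher, at 2.03-fold, and none lower, against 0.456% and 2.11% of genes. The difference exceeded 2 spot errors for 11 of the 23, against 21.9% of genes. Among genes as dim as most of these (a mean level below -1 on the log2 scale), 22 members had a median of 0.44 and 5829 genes a median of -0.01. Of these members 21 lay above 0, against 48.8% of the dim genes, and 11 were higher by more than 2 spot errors, against 14.8%. At 1.5-fold 10 of the 22 were higher and none lower (4.15% and 9.37% of dim genes), and at 2-fold 1 was higher and none lower (0.6% and 3.29%). With no filter on dim probes, 25 of all 29 members with a probe lay above 0 (median 0.44), against 44.2% of 15153 genes (median -0.05). A gene measured on 1 array only received a bound: its bright value was set against its own dim value or the array's lowest level well above background, whichever was higher. With these bounds 28 members had a value. Of these, 25 lay above 0 (background 50.1%), 12 were higher by more than 2 spot errors (21%), 14 were at least 1.5-fold higher (4.25%) and 1 that much lower (8.43%), 3 were at least 2-fold higher (0.883%) and 1 that much lower (3.91%). The genes seen on 1 array only had to differ to be counted, so these shares are a description. The differences of the 23 ranged from -0.14 to 1.02. Of them 8 lay within 0.25 of 0, a share that was not counted over all genes.

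**Figure D3:**
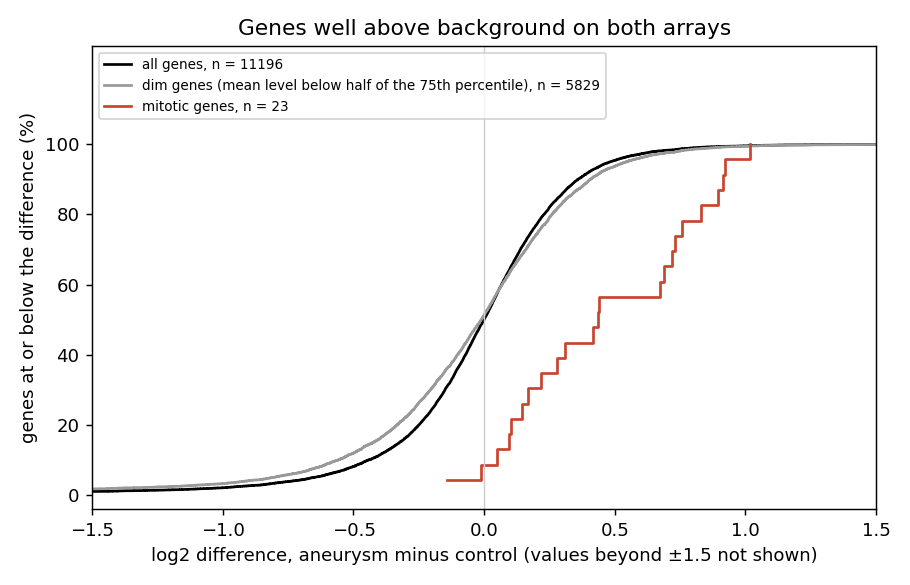
Cumulative share of genes (%) by log2 difference, aneurysm minus control, for the 23 mitotic genes, all 11196 genes and the 5829 dim genes, each measured on both arrays. The curve of the mitotic genes lies to the right of the others, with a median of 0.44 against -0.00026 and -0.01.

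The size of the differences depended on how the background was treated. Normexp, a model of background plus signal, used with an offset of 50 that shrinks the differences of dim probes by construction, gave a member median of 0.14 on the processed intensity, with 19 of 26 members above 0 and none at 2-fold, against a median of -0.06 and 40.2% above 0 for all genes. On the median spot signal and its local background it gave 0.09 with 17 of 26 above 0, against -0.08 and 36.9%. In both corrections Aurkb and Kif2c had no value, because their bounds were no longer above 0 and were dropped. The counts and medians over 26 members therefore leave out members that lost their difference. The median of the members was above that of all genes in each of the 12 alternatives, by 0.17 at the least.

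Of the cyclins and entry kinases, 6 were measured on both arrays, all 6 above 0 (against 50% of all genes so measured), with a median of 0.52 and a range from 0.10 to 0.91. For Cdk1, the kinase that drives mitosis and the member with the smallest spot error, 10 control spots lay between 23.3% and 28.4% (median 26.5%) and 9 aneurysm spots between 44.4% and 48.7% (median 46.6%). The spots of the arrays did not overlap, and the difference was 0.83 ± 0.05, or 1.78-fold. Normexp on the processed intensity left it at 0.66. Ccnb1, a mitotic cyclin partner of Cdk1, had spots at 3.36% and 4.79% in the control and 7.30% and 7.80% in the aneurysm, a difference of 0.91 ± 0.38 that was 0.23 with normexp. Ccnb2, the other B-type cyclin, was not well above background in the control (spots at 1.97% and 2.76%) and was in the aneurysm (4.42% and 5.94%), at least 2.20-fold higher. Its own control value was the higher of those that set the bound, so the bound equals the measured difference of 1.14 ± 0.54 and is no strict limit, and with normexp it was 0.17.

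Ccna2, cyclin A, which acts in DNA replication and early mitosis, had control spots at 8.62% and 9.34% and aneurysm spots at 14.5% and 15.3%. Its difference was 0.73 ± 0.18 (0.35 with normexp), and a dimmer probe with 1 spot per array, at 6.24% and 18.5%, gave 1.57 ± 0.35. Both probes were higher in the aneurysm. The entry kinases differed less. Plk1, which acts from mitotic entry to cytokinesis, had control spots at 27.4% and 32.1% and aneurysm spots at 34.4% and 34.5% (0.22 ± 0.11; 0.14 with normexp), and Aurka, the kinase of the spindle poles, was at 0.31 ± 0.14 (0.17 with normexp). Foxm1, a transcription factor for these genes, had 9 control spots between 14.9% and 19.5% and 9 aneurysm spots between 16.3% and 19.0%, which overlap, and a difference of 0.10 ± 0.07. Its difference was -0.0044 with normexp, and its other probe, with 1 spot, was below that mark on both arrays. The difference of Cdk1 exceeded that of Foxm1 by 0.73, with a spot error of 0.08.

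Of the spindle microtubule proteins and motors, 4 were measured on both arrays, all 4 above 0 (against 50% of genes), with a median of 0.83 and a range from 0.44 to 1.02. Prc1, which bundles microtubules between the separating chromosomes, had 10 control spots between 7.31% and 8.71% (median 7.92%) and 10 aneurysm spots between 12% and 16.5% (median 15.1%). They did not overlap, and the difference was 0.90 ± 0.11, with 0.44 after normexp. A second, dimmer Prc1 probe gave 0.45 ± 0.49. Kif11, the kinesin that pushes the spindle poles apart, was dim, with 10 control spots between 1.78% and 3.17%, 6 of them well above background, and 10 aneurysm spots between 3.56% and 6.19%, all well above it. These spots did not overlap either, and the difference was 0.76 ± 0.22, but 0.04 and -0.0040 with the normexp alternatives. Nusap1, which links microtubules to chromosomes, had 10 control spots between 10.4% and 17.9% (median 11.8%) and 10 aneurysm spots between 13.8% and 24.6% (median 16.8%). Its spots overlapped, and the difference was 0.44 ± 0.07, or 0.20 with normexp. Of the 5 mitotic probes with 10 spots that were well above background on both arrays, 3 had all aneurysm spots above all control spots, against 33.5% of the 1254 such probes on the array, and none had them all below (7.74%), so full separation of repeat spots is common and says nothing about animals.

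Ckap2, a protein of the spindle microtubules, was the highest member measured on both arrays, at 9.06% in the control and 18.4% in the aneurysm. The chosen probe had 1 spot per array and differed by 1.02 ± 0.25, and another with 2 spots gave 0.90 ± 0.38, so its 2 probes lay close together. With normexp the value was 0.57. Tpx2, which starts microtubule growth near chromosomes and activates Aurka, rested on 1 spot per array at 1.64% (not well above background) and 4.69%. Its bound of at least 2.87-fold equals the measured 1.52 ± 0.76, which is under 2 spot errors, and with normexp it was 0.22. Kif2c, a kinesin that takes microtubules apart, was at 2.58% and 4.08% in a probe with 1 spot per array. Its bound of 1.58-fold equals the measured 0.66 ± 0.70, which is less than its spot error, and is no strict limit. Its probe with 10 spots, left out because it was dimmer, had 1 of 9 spots well above background in the control and 7 of 10 in the aneurysm, at a difference of 0.33 ± 0.26.

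**Figure D4:**
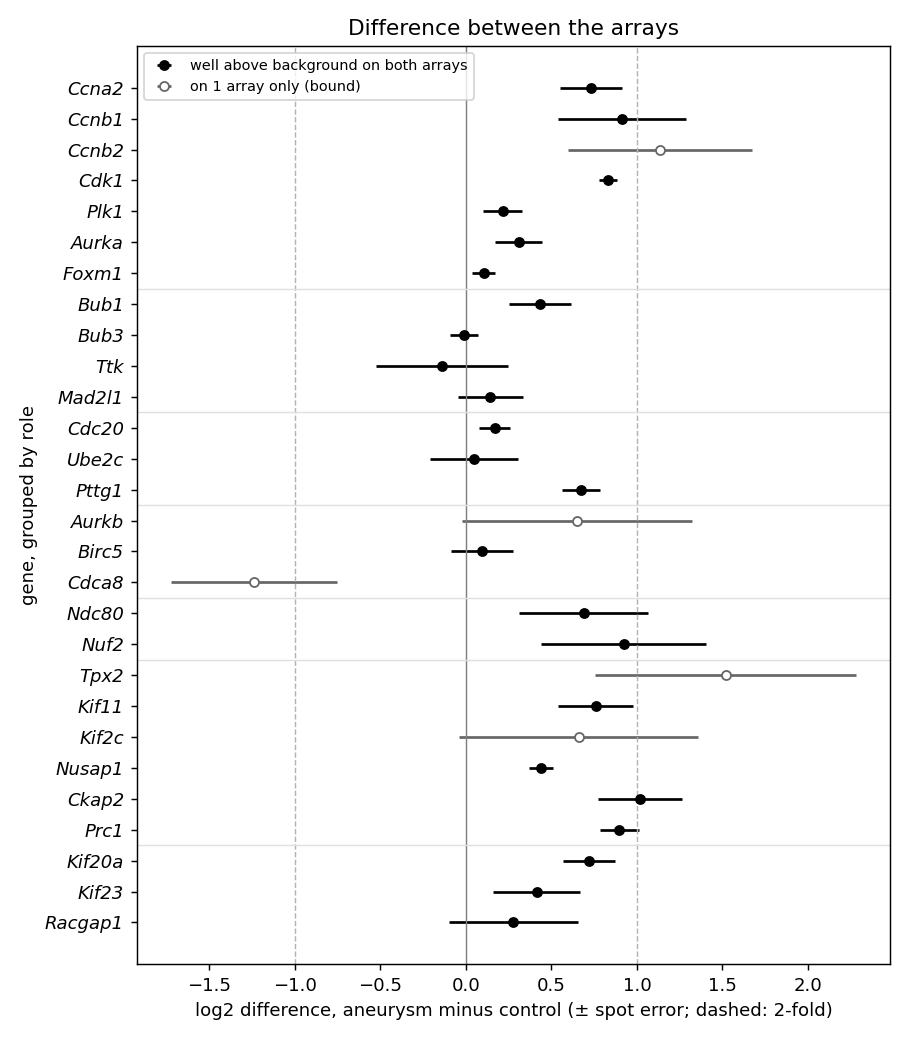
Log2 difference, aneurysm minus control, of 28 mitotic genes grouped by role, with the spot error as bars (filled: well above background on both arrays; open: bound from 1 array; dashed lines: 2-fold). Tpx2 is highest at 1.52 and Cdca8 lowest at -1.24, while Foxm1, Bub3, Ttk, Ube2c and Birc5 lie within 0.15 of 0.

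The 3 kinetochore genes with a probe were dim, and 2 of them were measured on both arrays. Ndc80 and Nuf2 encode partners in the complex that grips microtubule ends. Ndc80 had spots at 4.07% and 4.93% in the control and 7.09% and 7.35% in the aneurysm (0.69 ± 0.38), and Nuf2 at 2.58% and 3.07% against 5.25% and 5.42% (0.92 ± 0.48). In both genes the aneurysm spots lay above the control spots, and both differences were under 2 spot errors. With normexp they were 0.14 and 0.13, and with normexp on the median signal Nuf2 was at -0.01. Cenpf, a protein of the outer kinetochore, allowed no bound. Its chosen probe had control spots at 1.76% and 2.95% and aneurysm spots at 1.55% and 2.79%, which overlap, with 1 of 4 spots well above background. Its other probe, also with 1 of 4 spots well above background, gave 0.57 ± 0.67, likewise with overlapping spots.

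Of the 4 checkpoint genes measured on both arrays, 2 lay above 0 (against 50% of genes) and the median was 0.07. Bub1, a checkpoint kinase at kinetochores, was the highest, with control spots at 8.48% and 9.01%, aneurysm spots at 11.6% and 12% and a difference of 0.44 ± 0.18, or 0.14 with normexp. A second Bub1 probe, not well above background on either array, went the other way (-1.16 ± 0.65). Mad2l1, which inhibits Cdc20 until chromosomes are attached, was at 0.14 ± 0.19 and turned to -0.03 with normexp. Ttk, the kinase that recruits the checkpoint, was at 6.39% in the control and 5.80% in the aneurysm on 1 spot each (-0.14 ± 0.38; 0.16 with spike-in scaling). Bub3, which also has a part outside mitosis, was bright, at 478% and 475%, with a difference of -0.01 ± 0.08; its second probe gave 0.26 ± 0.10, and spike-in scaling turned the first to 0.29 and normexp to 0.0076.

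Genes of anaphase onset differed from each other. Pttg1, securin, which holds the protease that cuts chromosome cohesion in check, had control spots at 27.6% and 28.2% and aneurysm spots at 44.0% and 45.0%, a difference of 0.67 ± 0.11 that kept 0.53 with normexp. Cdc20, the activator of the anaphase promoting complex, had control spots at 33.2% and 35.9% and aneurysm spots at 37.5% and 40.2% (0.17 ± 0.09; 0.11 with normexp). Ube2c, the ubiquitin-conjugating enzyme of that complex, was at 10.9% and 11.3% on 1 spot each (0.05 ± 0.26; -0.08 with normexp). The difference of Pttg1 exceeded that of Cdc20 by 0.50, with a spot error of 0.14.

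Of the chromosomal passenger complex, which corrects faulty attachments and guides cytokinesis, only Birc5 was measured on both arrays. These values therefore cannot show whether its genes share a direction. Birc5, survivin, had control spots at 11.1% and 12.2% and aneurysm spots at 12.4% and 12.5% (0.10 ± 0.18; -0.05 with normexp). Aurkb, the kinase of the complex, was near the floor, with control spots at 0.854% and 1.05% and aneurysm spots at 1.78% and 1.91%, 1 of the 4 well above background, and a bound of at least 1.57-fold (0.65 ± 0.67). Cdca8, borealin, was the only member at least 2-fold lower. That value, -1.24 ± 0.49, came from control spots at 1.39% and 15.5% against aneurysm spots at 1.95% and 1.99%, so it rests on a single bright control spot, and the other control spot lay below both aneurysm spots.

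Of the 3 cytokinesis genes measured on both arrays, all 3 lay above 0 (against 50% of genes). Kif20a, a kinesin of the central spindle, had control spots at 15.8% and 16.4% and aneurysm spots at 26.4% and 26.5%, with a difference of 0.72 ± 0.15 and 0.47 after normexp. Kif23 and Racgap1 form the centralspindlin complex. Kif23 had overlapping spots, at 6.86% and 9.93% in the control and 9.91% and 12.2% in the aneurysm (0.41 ± 0.26; 0.11 with normexp), and Racgap1 was at 0.28 ± 0.38 (-0.05 with normexp).

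Other genes of the cell cycle, on lists made by function, gave smaller medians. Of 55 other mitotic genes 38 had a probe, and of the 28 measured on both arrays 20 lay above 0 (median 0.21), 5 were at least 1.5-fold higher and 1 that much lower. Over all genes measured on both arrays these shares were 50%, 3% and 6.23%, and they apply to each list that follows. The 4 with the largest differences were Fam83d, a spindle protein, at -2.06 ± 0.22, Cep55, which acts in the final cut between daughter cells, at 1.05 ± 0.48, Cks2, a partner of Cdk1, at 0.95 ± 0.17 and Spc25, a partner of Ndc80, at 0.82 ± 0.37. Of 40 genes of DNA replication, 29 were measured on both arrays, 19 of them above 0 (median 0.10) and 3 at least 1.5-fold higher. Rrm2, a subunit of the enzyme that makes DNA building blocks, had scaled signals of 42.5% and 70.7% (0.74 ± 0.09). In the same list Ung, which removes uracil from DNA, was at 0.85 ± 0.48, the replicative helicase subunit Mcm6 at 0.75 ± 0.26, Rrm1 at 0.55 ± 0.53 and Pcna, the sliding clamp, at 0.36 ± 0.07.

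The remaining lists had medians between -0.03 and 0.14, with single genes well away from them. The 14 subunits and partners of the anaphase promoting complex had a median of 0.03 with 8 above 0, none at 1.5-fold, and Cdc27 (-0.38 ± 0.52), Cdc23 (0.31 ± 0.12), Anapc1 (0.22 ± 0.03) and Ube2s (0.22 ± 0.06) as its largest. The 8 measured genes on a list of further cyclins and their kinases had a median of 0.14 with 7 above 0. The largest were Ccnc (0.45 ± 0.14), Ccnh (0.33 ± 0.08), Cdk4 (0.25 ± 0.06) and Ccnd3 (0.14 ± 0.06). Of the 7 CDK inhibitors measured on both arrays 3 lay above 0, and the median was -0.03. Among them Cdkn1a, p21, was lower (-0.42 ± 0.05), Cdkn2a, which encodes p16 and p19Arf, was at -0.81 ± 0.23, Cdkn2c at 0.64 ± 0.26, Cdkn3 at 0.29 ± 0.38 and Cdkn1b, p27, at -0.03 ± 0.04. Of 8 measured DREAM and Rb factors 5 lay above 0 (median 0.03), with Mybl2, B-Myb, at 0.66 ± 0.48, E2f3 at -0.56 ± 0.21, Rb1 at 0.47 ± 0.11 and Tfdp1 at 0.31 ± 0.12.

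Markers of other cell types differed between the arrays as well, and their part in the mitotic differences was not tested. Smooth muscle markers, which the labelled arterial wall should hold, were bright on both arrays (3 of 4 higher in the aneurysm, summed scaled signal 7860% and 8556%). Their differences were -0.01 for Acta2, 0.08 for Myh11, 0.18 for Tagln and 0.51 for Cnn1. Of 4 endothelial markers 2 were higher (summed 1150% and 1214%), with Pecam1 at 0.33 and Cdh5 at -0.24. Higher on the aneurysm array were fibroblast markers (5 of 5, summed 5474% and 7160%) and macrophage markers (6 of 7, summed 3638% and 4268%). Oligodendrocyte precursor markers, of a cell type that can divide, were mixed: Pdgfra (0.40) and Cspg4 (0.36), which other cells also make, were higher and Olig2 (-0.82) was lower (summed 1467% and 1883%). T and NK cell markers were dim (4 of 6 higher, summed 59.5% and 72.2%), and none of 4 testis germ cell genes was well above background. Lower on the aneurysm array were hepatocyte markers (6 of 6, summed 4180% and 843%), oligodendrocyte markers (4 of 4, 16229% and 8273%), neuronal markers (5 of 5, 244% and 148%), astrocyte markers (3 of 3, 3144% and 2909%) and erythroid markers (4 of 4, 4043% and 2361%). The file headers give the same slide and the same scan for both arrays.

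The medians under each processing are plotted together. They ranged from 0.09 to 0.74 for the mitotic genes and from -0.08 to 0.30 for all genes, the highest of both with spike-in scaling, which raises every gene by 0.30.

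**Figure D5:**
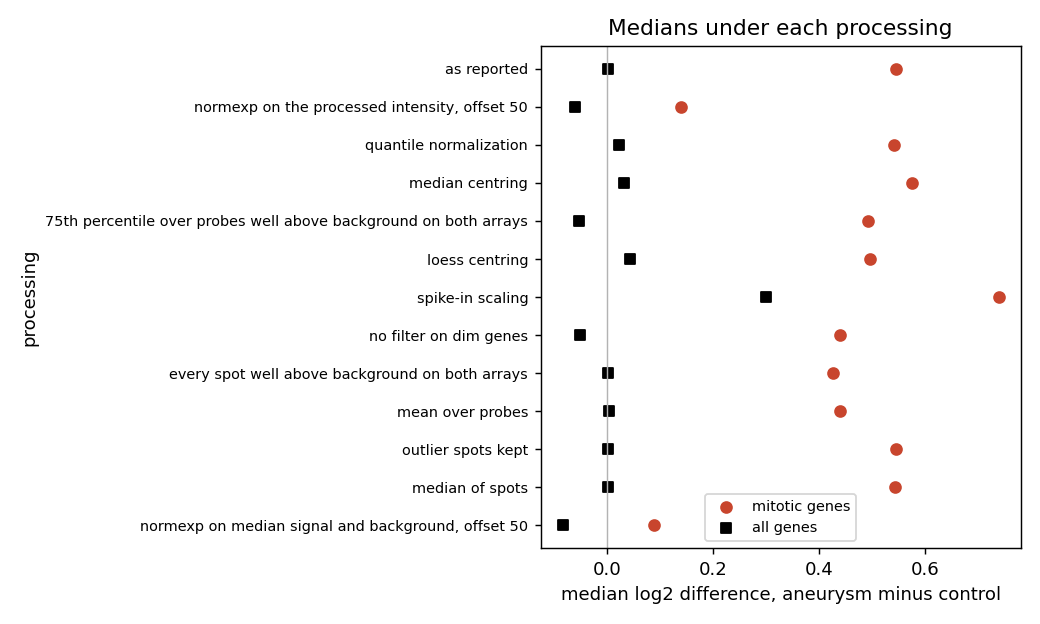
Median log2 difference, aneurysm minus control, of the mitotic genes (circles) and of all genes with a value (squares) as reported and under 12 alternatives. The circle lies to the right of the square in every row, and is closest to it with the normexp corrections.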

How the data were processed

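Total RNA was extracted with a fibrous tissue kit and labelled with Cy3 using an amplification kit for low input, as stated in the labels' protocols. The authors deposited the scanner files, written by Feature Extraction version 10.10.1.1 according to their headers. The deposited spot intensity is on a linear scale, background-treated within an array and not normalized between arrays. Other deposited columns hold flags, median spot intensity and local background intensity.

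From the processed intensity, log2 values were taken and centred on the 75th percentile of each array's 58717 non-control spots. Outlier spots (484 and 573) were dropped before averaging over a probe. Of 30367 probes, 17998 matched 1 gene of a RefSeq table by accession, 0 several and 12369 none. This table served for names only, its build not being that of the array design. For genes with several probes, the brightest of those measured on 1 array or more was used, which left 11978 genes, 11897 of them with a difference or bound. Spot errors used the spot SD pooled in 20 bins of signal. The code was tested on simulated arrays. The members and lists were chosen with earlier results of these data known; the rule names all members, up to 4 genes with the largest differences per related list, Pcna, Cdkn1a, Cdkn1b and cell type markers. Alternatives were normexp, quantile, median, loess and spike-in scaling (7 spike-in probes), a percentile over probes well above background, other filters, other summaries of probes and spots, and thresholds of 1.5-fold and 4-fold; normexp on median spot signals was added after the data had been seen. R 4.3.3 with limma 3.58.1 and Python 3.11.15 were used.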

Additional observations from a re-analysis of the deposited data

How the results depend on the processing

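With 1 array in each group no replicate could be left out, and dim signal limits every value. No paired analysis was possible because each group has 1 array and no test was made. The median of the members, 0.54 over 28 values, was 0.14 with normexp on the processed intensity and 0.088 with normexp on the median signal (also added then); the other 11 values lay between 0.43 and 0.74. Over the 18 members with every spot well above background and 2 or more spots, an alternative added after the data had been seen, it was 0.44. The count at least 2-fold higher was 3 of 28 as reported, against 0.883% of all genes. It was 0 of 26 with both normexp corrections (all genes 0.138% and 0.121%), and 5 of 29 with quantile (1.38%) and with loess centring (1.44%). With spike-in scaling, which raises every gene by 0.30, it was 10 of 29 (2.55%). Where every spot had to be well above background it was 1 of 22 (0.422%). At a threshold of 1.5-fold it was 14 (4.25%), and at 4-fold 0 (2 of 11897 genes). The 1 member at least 2-fold lower, Cdca8, was lost (count 0) with both normexp corrections, with spike-in scaling, where every spot had to be well above background, and at 4-fold. Of 28 members with a value, 19 kept their sign in each of the alternatives that gave one, and 18 of these were higher on the aneurysm array. Ccnb2, Aurkb, Tpx2, Kif2c and Cdca8 are among the 19. Their values are bounds, which were dropped where they did not keep their direction, so their sign could change only without the filter. Aurkb and Kif2c had no value with either normexp correction. The share of all genes that kept their sign was not counted. The planned normexp on mean spot signals ran on the processed intensity, since mean signals are not used here. The offset of normexp shrinks dim differences by construction; other causes were not tested.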

Other observations

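Genes of both the replication and the mitotic lists that were well above background on the aneurysm array only were looked at after their values had been seen. Pola2, a subunit of the polymerase that primes DNA synthesis, was at least 2.70-fold higher there (0.847% and 3.17% of the scale), with 1 of 2 aneurysm spots well above background. Cdc6, which loads the replicative helicase, was 2.39-fold higher (1.19% and 2.84%), a difference of 1.26 ± 0.63, with 2 of 2 aneurysm spots well above background. Gins2, a part of the active helicase, was 2.19-fold higher (1.34% and 2.94%) on 1 spot per array, a difference of 1.13 ± 0.89. In Cdc6 and Gins2 the bound equals the measured difference, so it is no strict limit, and it is under 2 spot errors. Kif18a, a kinesin that aligns chromosomes, was at least 2.07-fold higher (0.828% and 2.43%). Such genes had to differ to be seen on 1 array only, so they do not add to the counts above.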
